A study of Mus musculus with 24 samples.

Results

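Adipsin is complement factor D, a protease that fat cells secrete, and it is described here with 6 other complement genes in inguinal white adipose tissue (iWAT) of mice with and without LPCAT3 on 3 high-fat diets. The 7 genes are Cfd (adipsin), C3, Cfb, Cfp, C2, C4b and C3ar1, taken by name from a deposited count table of 35727 genes, which lists them in capitals as CFD, C3, CFB, CFP, C2, C4B and C3AR1. They were selected on their read counts in these 6 groups, seen in an earlier look at the same libraries, so their levels and differences are given as a description, with no p-value. Where the number of the 7 past an adjusted p of 0.05 is printed, for genotype or for diet, it describes the choice of the genes and nothing is read from it. All 7 had enough counts to enter the fit of 15259 genes.

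Complement is a cascade of plasma proteins that marks surfaces for removal and calls in immune cells. In the alternative pathway, factor D cleaves factor B (Cfb) while B is bound to C3b, which forms the enzyme that cleaves more C3, and properdin (Cfp) holds that enzyme together. In the classical and lectin pathways C4 and C2 form the corresponding enzyme, and C3ar1 is the receptor for C3a, the small fragment released when C3 is cleaved. White adipose tissue is known as a main source of adipsin.

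The libraries came from iWAT of male mice, 18 to 22 weeks old, labelled as wild type (WT) or AdL3KO (KO). LPCAT3 is an enzyme that places polyunsaturated fatty acids on phospholipids, and the sources used here name no construct, driver of the deletion or strain. Fat supplied 60% of calories in every diet, which was SFA (rich in saturated fat), n6 (rich in omega-6) or n3 (rich in omega-3), and no group ate a low-fat diet. There were 24 libraries, 4 for each of 6 groups. The labels do not say that each library was a separate animal, so errors and p-values measure only the spread between these libraries. Codes in the sample descriptions begin with a different letter for each diet, so anything else those letters may stand for cannot be told apart from diet.

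Libraries held 43.6 to 62.1 M estimated counts, with a median of 50.2 M. Mature adipocytes are named in the title of the series, yet no step that isolates them is in the labels' protocols. Adipocyte markers were abundant (Plin1 mean 1648 to 2167 CPM by group; CPM is counts scaled to 1 M per library after TMM scaling), and macrophage markers were present as well (Csf1r, mean 123 to 211 CPM by group). In bulk tissue, fewer cells of a type and less RNA per cell cannot be told apart. Lpcat3, the targeted gene, was lower in KO counts by log2 0.63 on SFA, 0.51 on n6 and 0.98 on n3, each past an adjusted p of 0.05 in edgeR's quasi-likelihood test. Its TPM, which is scaled by transcript length, was not lower on SFA or n6, where KO means were 106 and 74.3 against 101 and 69.5 TPM in WT, and was 80.2 against 102 TPM on n3.

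Markers of cells other than fat cells were high in some libraries. Sums of B cell markers reached 34.3, 28.6 and 41.4 CPM in WT SFA replicate 3, KO SFA replicate 2 and KO n6 replicate 2, beside group medians of 5.51, 6.53 and 7, and muscle markers reached 283 CPM in KO n6 replicate 1 beside a median of 36.1. Sums of 6 hepatocyte markers reached 45.7 CPM in WT n6 replicate 4 and 41.3 CPM in KO n3 replicate 3, beside group medians of 16.5 and 11.6 CPM. Several results are given with and without the 4 libraries with high muscle or B cell marker levels, or the 2 high in hepatocyte markers. The value of Cr2 and the counts of cell type markers that passed are given only with them.

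The genes lie on 4 chromosomes (GENCODE M21, mm10). Cfd is a short gene at chr10:79890853-79892655 on the plus strand. C3 (chr17:57203970-57228136), Cfb (chr17:34856374-34862518), C2 (chr17:34862604-34898265) and C4b (chr17:34728380-34743882) are all on the minus strand of chromosome 17. Cfb and C2 are neighbours, 85 bases apart. The annotation also holds Gm20547, a gene model that shares 79.5% of the exonic bases of Cfb and 42.8% of those of C2, so reads could be split between these models. Gm20547 has counts of its own, which are not reported here, and how reads were split was not examined. C4a, a close copy of C4b, is not analysed here, and counts given for C4b may include its reads. Cfp is at chrX:20925454-20931555 and C3ar1 at chr6:122847138-122856161, both on the minus strand.

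The RefSeq promoter table (GRCm38.p6, 250 bases before to 50 after each start) held 4 of the 7 genes: Cfd, C3, Cfp and C3ar1. Cfb, C2 and C4b had no entry. The promoters of 3 are printed 5′ to 3′ on the strand of the gene because they show the contrast between Cfd, with none of the searched motifs, and C3 and C3ar1, with different ones. Capitals mark motif matches, and positions are counted from the start as 1, with -1 just before it.
Cfd, chr10:79890603-79890902, plus strand: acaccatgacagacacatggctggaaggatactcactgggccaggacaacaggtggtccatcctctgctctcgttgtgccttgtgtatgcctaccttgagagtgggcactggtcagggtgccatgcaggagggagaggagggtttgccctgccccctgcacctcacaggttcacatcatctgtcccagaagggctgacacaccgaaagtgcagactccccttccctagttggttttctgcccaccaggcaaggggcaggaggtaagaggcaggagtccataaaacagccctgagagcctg
C3, chr17:57228087-57228386, minus strand: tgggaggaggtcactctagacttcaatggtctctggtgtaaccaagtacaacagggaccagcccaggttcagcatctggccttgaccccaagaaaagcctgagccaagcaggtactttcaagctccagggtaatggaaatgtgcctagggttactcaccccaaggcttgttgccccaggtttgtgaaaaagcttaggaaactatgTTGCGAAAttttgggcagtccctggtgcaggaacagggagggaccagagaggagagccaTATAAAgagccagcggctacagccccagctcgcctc
C3ar1, chr6:122856108-122856407, minus strand: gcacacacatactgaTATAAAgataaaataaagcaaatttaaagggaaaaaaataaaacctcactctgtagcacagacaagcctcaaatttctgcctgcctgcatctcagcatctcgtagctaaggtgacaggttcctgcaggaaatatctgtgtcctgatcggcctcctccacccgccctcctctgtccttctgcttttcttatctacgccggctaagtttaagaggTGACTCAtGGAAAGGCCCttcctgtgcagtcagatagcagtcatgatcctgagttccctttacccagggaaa

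The motifs searched, on both strands and with overlap allowed, were the TATA box TATAAA (found in 13.6% of 32851 promoters), the C/EBP motif TTGCNNAA (10.8%), the AP-1 motif TGACTCA (5.2%), the NF-kB motif of GGG and TTCC with 3 bases between them (5.56%), the interferon-stimulated motif of GAAA and GAAA with 2 bases between them (3.44%), and direct repeats of AGGTCA with 1 base between them for PPARG-RXR (0.04%) or 4 bases for LXR-RXR (0.015%). C3 held TTGCGAAA from -45 to -38 and TATAAA from 15 to 20. C3ar1 held TATAAA from -235, TGACTCA from -22, and the reverse of the NF-kB letters, GGAAAGGCCC, from -14 to -5. Neither Cfd nor Cfp had any of these letters in its window. A match is a description of the letters and not evidence of a factor at work.

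Cfd had the highest transcript level of the 7 genes in every group on the TPM scale, which allows genes of different length to be compared. In WT SFA it stood at 3002 ± 553 TPM (SD, n = 4), ahead of C4b at 478 ± 41.2, Cfb at 329 ± 25.7 and C3 at 268 ± 24.8 TPM. Cfp (59.6 ± 4.34), C2 (40.6 ± 3.65) and C3ar1 (15.3 ± 2.67 TPM) were far lower. The distance from Cfd to the others was much smaller in KO. Cfd made up 71.3% ± 3.04, 66.5% ± 6.26 and 60.2% ± 3.08 of the summed TPM of the 7 genes in WT on SFA, n6 and n3, against 37.6% ± 8.06, 36.8% ± 4.78 and 40.2% ± 5.33 in KO (SD, n = 4 each). Below Cfd, KO libraries on all 3 diets had C3 ahead of Cfb in the mean, the reverse of WT, although the 2 genes' libraries overlapped in 4 of the 6 groups.

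**Figure D1:**
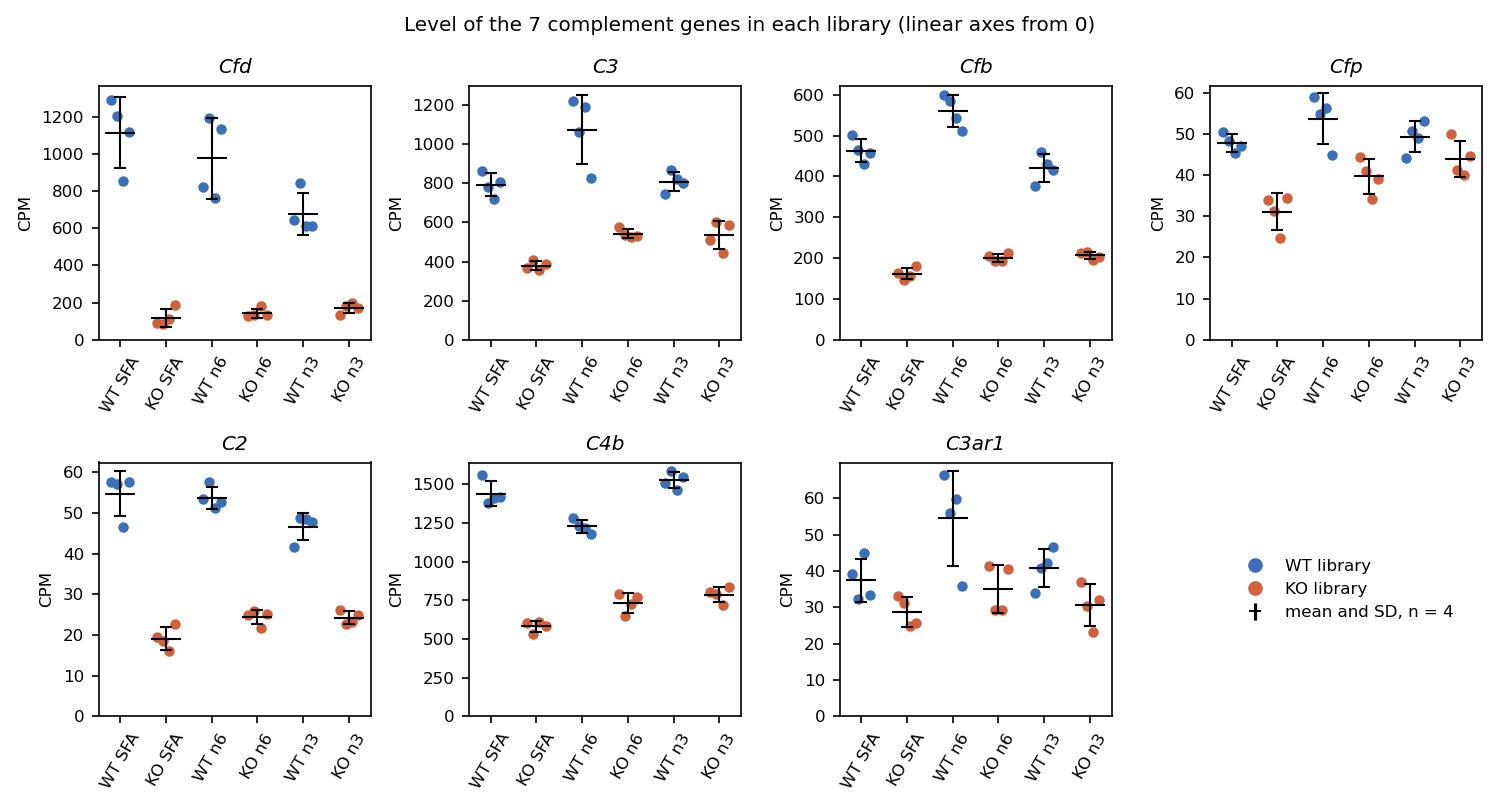
CPM of each gene in each library (points; 4 per group), with the group mean and SD as bars; linear axes start at 0. Cfd drops from 611 to 1291 CPM in the 12 WT libraries to 83.3 to 199 CPM in the 12 KO libraries, whereas the C3ar1 groups overlap.

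Cfd had the largest difference between genotypes of the 7 genes on every diet. On SFA the 4 WT libraries read 1291, 1203, 853 and 1118 CPM (mean 1116 ± 189) and the 4 KO libraries 91.0, 83.3, 112 and 188 CPM (119 ± 48). On n6 they read 820, 1194, 762 and 1136 (978 ± 218) against 125, 133, 179 and 131 CPM (142 ± 25), and on n3 642, 847, 614 and 611 (678 ± 113) against 131, 183, 199 and 170 CPM (170 ± 28.8). The lowest WT library of all stood above the highest KO library of all. The log2 fold change of KO against WT was -3.24 (SE 0.239) on SFA, -2.78 (SE 0.234) on n6 and -1.99 (SE 0.228) on n3, or 9.42-fold, 6.88-fold and 3.98-fold lower levels.

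C3, the component on which all 3 pathways meet, was lower in every KO library than in any WT library of the same diet. On SFA, WT read 863, 779, 720 and 809 CPM and KO 366, 407, 357 and 385 CPM. On n6, WT read 1219, 1064, 1189 and 827 CPM and KO 576, 537, 525 and 533 CPM. On n3, WT read 745, 866, 820 and 804 CPM and KO 512, 600, 446 and 587 CPM. The log2 fold changes were -1.07 (SE 0.0989), -0.99 (SE 0.0986) and -0.59 (SE 0.0981) on SFA, n6 and n3.

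Cfb, the substrate of adipsin, was also separated on every diet. On SFA, WT read 500, 465, 431 and 457 CPM and KO 163, 147, 157 and 180 CPM. On n6, WT read 599, 585, 544 and 513 CPM and KO 205, 192, 194 and 213 CPM, and on n3 WT read 378, 460, 432 and 415 CPM and KO 213, 215, 195 and 203 CPM. No KO library reached a WT library. Log2 fold changes were -1.52 (SE 0.0667), -1.48 (SE 0.0666) and -1.03 (SE 0.066).

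Cfp, which stabilises the enzyme that Cfb forms with C3b, differed least among the alternative pathway genes. WT and KO read 50.4, 48.4, 45.4 and 47.0 against 34, 31.2, 24.7 and 34.5 CPM on SFA, and 59.0, 54.8, 56.2 and 44.9 against 44.4, 41.0, 34.1 and 39.1 CPM on n6. On n3 the groups overlapped, with WT at 44.2, 50.8, 49.0 and 53.1 and KO at 49.9, 41.2, 40.0 and 44.6 CPM. The log2 fold changes were -0.62 (SE 0.101), -0.44 (SE 0.0998) and -0.17 (SE 0.0997), and the 95% interval on n3 ran from -0.38 to 0.04.

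C2 and C4b, which supply the convertase of the classical and lectin pathways, did not overlap between genotypes on any diet. C2 read 57.7, 57.2, 46.4 and 57.5 CPM in WT and 19.4, 18.4, 16 and 22.6 CPM in KO on SFA, 53.5, 57.6, 51.2 and 52.7 against 25, 25.8, 21.8 and 25 CPM on n6, and 41.6, 48.8, 48.4 and 47.7 against 26.1, 22.6, 23.2 and 24.8 CPM on n3. Its log2 fold changes were -1.52 (SE 0.0868), -1.14 (SE 0.0857) and -0.95 (SE 0.0859). C4b read 1558, 1378, 1409 and 1419 CPM in WT and 604, 534, 607 and 582 CPM in KO on SFA, 1282, 1232, 1217 and 1180 against 788, 647, 726 and 770 CPM on n6, and 1509, 1589, 1464 and 1551 against 804, 789, 719 and 837 CPM on n3. Its log2 fold changes were -1.31 (SE 0.0603), -0.75 (SE 0.0596) and -0.96 (SE 0.0598), so the smallest difference was on n6 and not, as for the other genes with separated groups, on n3.

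C3ar1, the receptor, overlapped between genotypes on all 3 diets. On SFA, WT read 39.1, 32.4, 45.1 and 33.3 CPM and KO 33, 31.3, 24.8 and 25.6 CPM. On n6, WT read 66.5, 55.9, 59.8 and 35.8 CPM and KO 41.3, 29.2, 29.3 and 40.4 CPM. On n3, WT read 33.8, 40.9, 42.2 and 46.5 CPM and KO 37.1, 30.3, 23.2 and 32 CPM. Log2 fold changes were -0.39 (SE 0.18), -0.64 (SE 0.178) and -0.42 (SE 0.18), with standard errors that only those of Cfd exceeded among the 7.

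**Figure D2:**
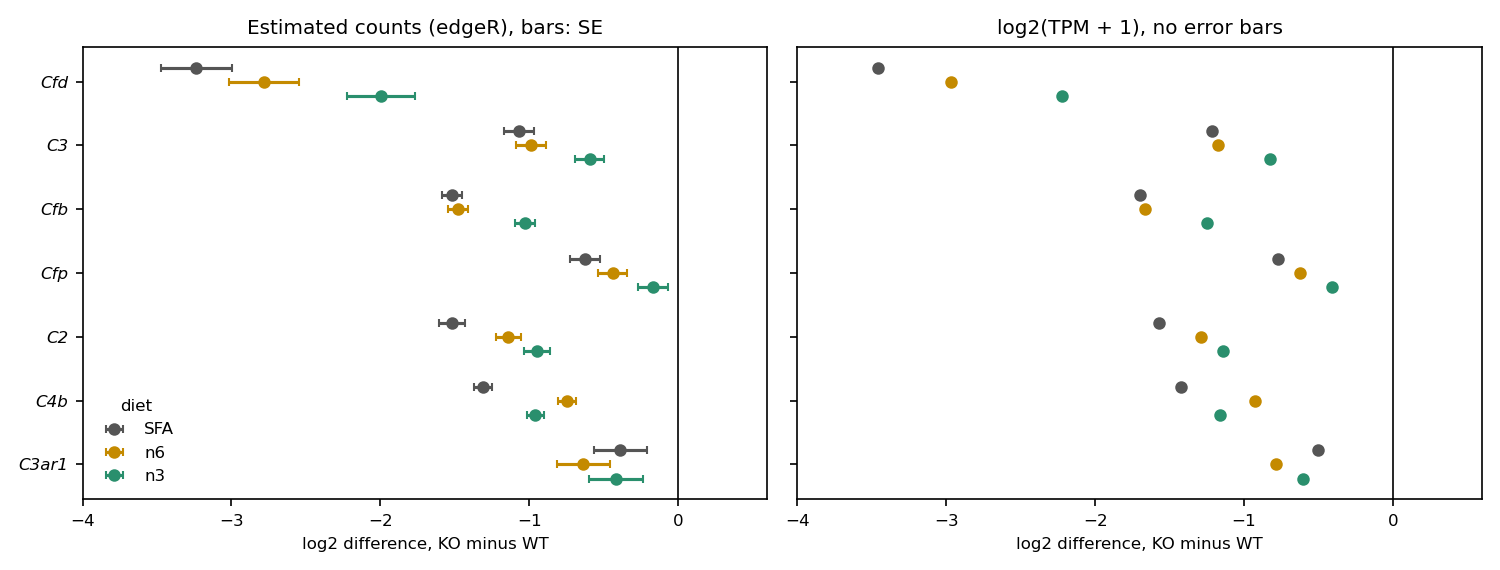
Log2 difference of KO minus WT for each gene on the 3 diets, from estimated counts with SE bars (left) and from log2(TPM + 1) (right). All 21 values on either scale lie below 0, from -3.24 for Cfd on SFA to -0.17 for Cfp on n3 on the count scale.

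In the fit over all genes, 6, 7 and 5 of the 7 genes were lower in KO past the threshold on SFA, n6 and n3, where 19.9%, 22.1% and 18.7% of all tested genes were. Groups of 4 libraries that did not overlap, all lower in KO, were found for 6, 6 and 5 of the 7, and for 18.1%, 19.7% and 15.6% of all tested genes. Without the 4 libraries with high muscle or B cell marker levels, the median of the 7 log2 fold changes was -1.28, -1.02 and -0.95 on the 3 diets, beside -1.31, -0.99 and -0.95 with them. It was -1.31, -1.09 and -0.92 without the 2 libraries high in hepatocyte markers. The median of all genes shifted by -0.12, -0.16 and -0.16 from the count to the TPM scale on SFA, n6 and n3, so values on it are read against that shift. On it, Cfd differed by -3.46, -2.97 and -2.22 and Cfp by -0.77, -0.62 and -0.41.

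The order of the 6 groups differed between genes. Cfd ran from WT SFA through WT n6 and WT n3 to KO n3, KO n6 and KO SFA, with a gap between libraries only between WT n3 and KO n3. C3, Cfb, Cfp and C3ar1 had their highest mean in WT n6, with libraries apart from the next group for Cfb alone. C4b was instead lowest on n6 among the WT diets, with 1529 ± 53.8 CPM on n3, 1441 ± 80.1 on SFA and 1228 ± 42.2 CPM on n6. All 7 had their lowest mean in KO SFA, with libraries apart from the next group for C3, Cfb and C4b and overlapping for the others.

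Between diets, n6 and n3 are each set against the same SFA libraries below, so these comparisons share them. In WT on n6 against SFA, C3 was higher by log2 0.44 (SE 0.0978), Cfb by 0.27 (SE 0.0651) and C3ar1 by 0.54 (SE 0.176), and C4b was lower (-0.23, SE 0.0593). C3, Cfb and C3ar1 passed the threshold as higher and C4b as lower, against 11.6% of all genes higher and 13.1% lower. On log2 TPM 4 of the 7 passed as higher and 0 as lower, where 6128 of 15128 genes were called in either direction. The C4b value was -0.05 on log2 TPM, where the median of all genes was 0.14. In WT on n3 against SFA, Cfd was lower in all 4 libraries, as were 4.9% of all genes (log2 -0.72, SE 0.219), a difference not past the threshold in a comparison in which 0.144% of all genes were. The other 6 genes had values from -0.23 to 0.13 there. On n3 against n6 in WT, C3 (-0.41) and Cfb (-0.41) were lower and C4b higher (0.32) past the threshold, against 8.61% of all genes lower and 9.82% higher. On log2 TPM 4 of the 7 passed as lower and 0 as higher, where 3882 of 15128 genes were called in either direction. Cfd stood at -0.53 (SE 0.219) on the count scale, with overlapping libraries.

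In KO most of the 7 genes were higher on n6 and on n3 than on SFA. On n6 against SFA, C3 (0.52, SE 0.0982), Cfb (0.31), Cfp (0.35), C2 (0.35) and C4b (0.33) were higher past the threshold, against 8.92% of all genes higher. Without the 4 libraries with high B cell or muscle marker levels 3 of the 7 were so, and 1729 of 15513 genes were called in either direction. On n3 against SFA, C3 (0.50), Cfb (0.35), Cfp (0.50) and C4b (0.44) were higher past the threshold, against 0.826% of all genes. When only the 2 groups compared were fitted, 1 of the 7 was so, and 31 of 14573 genes were called in either direction. Cfd had 0.26 (SE 0.222) on n6 and 0.52 (SE 0.222) on n3 against SFA, neither past the threshold. Between n3 and n6 in KO none of the 7 passed it, and their values ran from -0.20 for C3ar1 to 0.26 for Cfd, with 26% of all genes called.

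The size of the genotype difference on one diet was also set against that on another, as a description. The difference between the genotype effects on n3 and SFA was log2 1.24 (95% interval 0.59 to 1.90) for Cfd, 0.49 (0.30 to 0.69) for Cfb, 0.57 (0.32 to 0.83) for C2 and 0.35 (0.18 to 0.53) for C4b. For C4b the larger gap was between n6 and SFA, at 0.56 (0.39 to 0.74). The n3 minus SFA values were 0.47 (0.18 to 0.77) for C3, 0.46 (0.16 to 0.75) for Cfp and -0.03 (-0.56 to 0.51) for C3ar1. These intervals were not adjusted for the number of genes tested. The genes were selected on the same libraries, so no interval here is read as a test. With adjustment over all genes, the n3 minus SFA values of Cfd, C3, Cfp and C3ar1 did not pass the threshold. Those of Cfb, C2 and C4b did, and nothing is read from this either.

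The other genes of the cascade were taken from a list of 47 genes by role. Of these, 46 were in the count table and 36 had enough counts to test. In KO against WT, 18 fell and 1 rose on SFA, 16 fell and 2 rose on n6, and 16 fell and 2 rose on n3 (edgeR, adjusted p over all 15259 genes), with either direction called for 39.9%, 43.1% and 38.8% of all genes. Medians of the list were -0.36, -0.23 and -0.24, beside -0.003, 0.001 and -0.028 for all genes. On log2 TPM 21, 20 and 24 fell and 0, 1 and 0 rose, on a scale whose all-gene median was itself lower. On that scale 6438, 7969 and 8367 of 15128 genes were called in either direction. In all, 12 of the 36 genes fell past the threshold on all 3 diets, as 10% of all tested genes did, and 1 rose on all 3, as 11.4% did.

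Cfi and Cpn2, with the lowest values of the list on each diet, are soluble regulators, and Clu and Serping1 of the same role fell as well. Serping1, the inhibitor of the C1 proteases, fell from 309 ± 37.0 to 169 ± 14.5 CPM on SFA (log2 -0.88, adjusted p = 3.2e-09), from 391 ± 35.9 to 210 ± 12.5 on n6 (-0.90) and from 308 ± 10.5 to 202 ± 7.48 on n3 (-0.61), with no overlap of libraries. Clu, which blocks the membrane attack complex, fell by log2 1.15 on SFA, 1.35 on n6 and 0.95 on n3 (adjusted p = 2.5e-06, 2e-07 and 4.3e-05, edgeR). Cfi, the protease that inactivates C3b, fell by 2.96, 3.18 and 1.94, from very few reads: 34 to 62 counts per WT library and 1 to 11 per KO library on SFA. Cpn2, a subunit of the carboxypeptidase that trims C3a, fell by 2.32, 1.56 and 1.40 from 13 to 43 counts per WT library on SFA. Vtn, another inhibitor of the terminal complex, fell on n3 (-0.34, adjusted p = 0.021).

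Most genes that start the classical pathway fell too, by less. C1ra and C1s1, its proteases, fell by log2 0.57 and 0.60 on SFA (adjusted p = 5.1e-09 and 1e-08, edgeR), 0.23 and 0.30 on n6, and 0.32 and 0.35 on n3. The recognition subunits C1qa, C1qb and C1qc, made in this tissue largely by macrophages, fell by 0.41, 0.53 and 0.44 on SFA and by 0.24, 0.45 and 0.27 on n6. On n3 C1qb fell by 0.31 (adjusted p = 0.019), and C1qa (-0.21) and C1qc (-0.23) did not pass. Of 7 tested genes of this role, 6, 6 and 4 fell and none rose, where 19.9%, 22.1% and 18.7% of all tested genes fell.

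Among 5 tested lectin pathway genes, Masp1, a protease that switches the lectin pathway on, did not differ past the threshold on SFA (0.05, 95% interval -0.23 to 0.32) and fell on n6 (-1.04, adjusted p = 8.1e-07) and n3 (-0.57, adjusted p = 0.0019). Its means in WT and KO were 3.09 and 3.18 CPM with SFA, 5.09 and 2.47 CPM with n6, and 2.93 and 1.97 CPM with n3. Fcna, a lectin, fell on SFA (-0.38, adjusted p = 0.0085). Of 4 terminal genes, C6 fell on SFA (-0.56, adjusted p = 0.00068) and Hc, which encodes C5, rose on n3 (1.21, adjusted p = 0.0087) from 40 to 48 counts per library in WT to 47 to 124 in KO. On log2 TPM Hc did not pass on n3 (0.23, adjusted p = 0.13, limma). Its highest library was KO n3 replicate 3, at 2.82 CPM, 1 of the 2 with high hepatocyte markers. Without those 2 libraries Hc had 0.92 (adjusted p = 0.06, edgeR) and did not pass. Hepatocytes make most of the C5 in plasma, and the hepatocyte markers Apoa1 (3.99) and Fgb (3.90) rose in the same comparison with these libraries and did not pass without them. The part of such cells in the Hc value was not tested.

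Among the membrane regulators Cd59a, which protects cells from the terminal complex, rose on each diet, by log2 0.20, 0.29 and 0.20 (adjusted p = 0.011, 0.00053 and 0.011, edgeR). On log2 TPM its values were 0.08, 0.13 and 0.003, past the threshold on n6 alone. Cr1l, a cofactor that limits C3 convertase, fell by 0.18, 0.13 and 0.17. Among receptors, Itgam, Itgax and Itgb2, the integrin chains of complement receptors 3 and 4, fell on every diet, Itgax by 0.54, 1.14 and 0.91 and Itgb2 by 0.67, 0.96 and 0.64. C5ar2 (-0.56) and Vsig4 (-0.58) fell on n3. Cr2, a receptor of B cells, rose on n6 (4.39, adjusted p = 0.011), where KO libraries read 0.765, 5.52, 0.272 and 0.184 CPM and WT libraries 0.0170 to 0.143 CPM. The first and second of those KO libraries were among the 4 with high B cell or muscle marker levels.

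**Figure D3:**
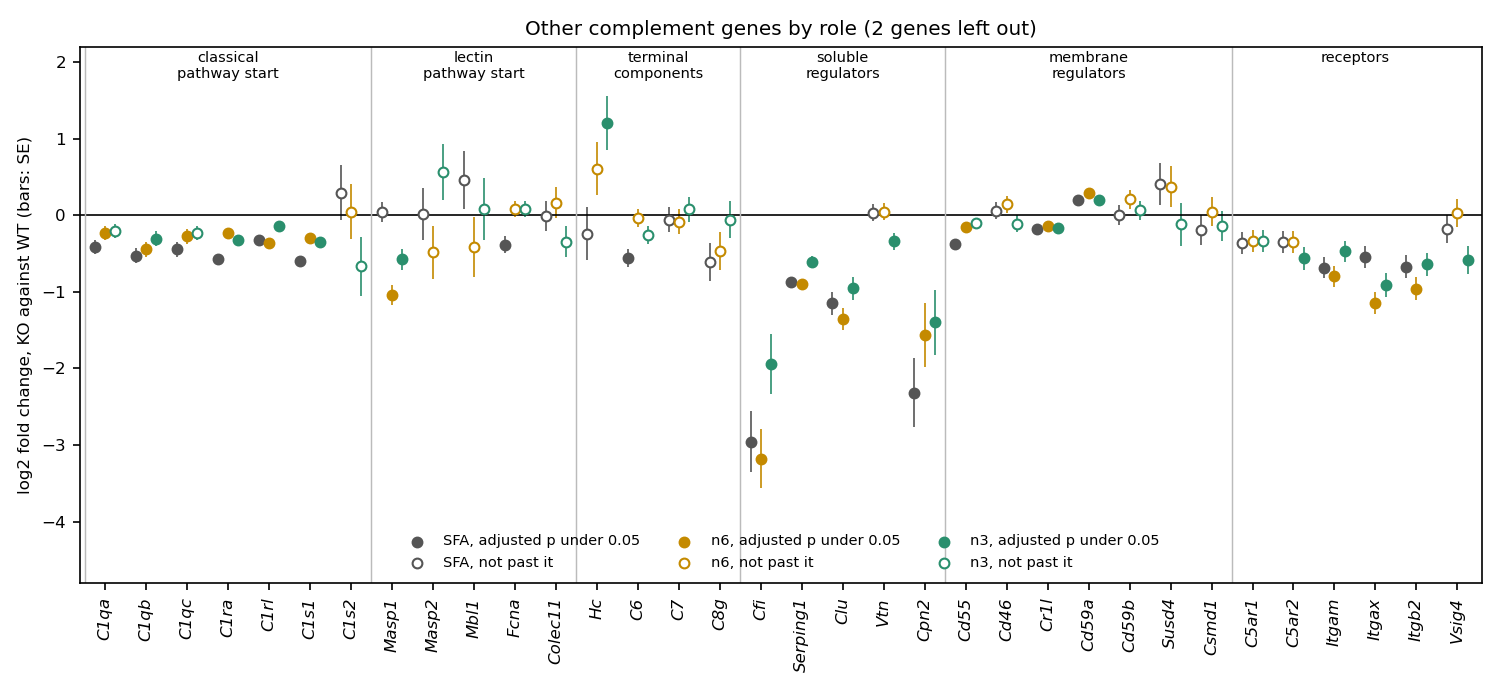
Log2 fold change of KO against WT (bars: SE) for 34 of the 36 other complement genes tested, by role and diet; filled points passed an adjusted p of 0.05, and Cr2, at 4.39 on n6, is among those not plotted. Most filled points lie below 0, with Cfi lowest on each diet, and Cd59a lies above 0 on all 3 diets.

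The same list was also compared between diets. In WT, 8 genes rose and 3 fell on n6 against SFA, with 24.7% of all genes called, and Masp1 (0.72), Itgax (0.89), Itgb2 (0.77), C7 (0.57), Clu (0.48) and Serping1 (0.34) were among those that rose. On log2 TPM 15 rose and 1 fell there, with 6128 of 15128 genes called. On n3 against SFA in WT none of the 36 passed by edgeR or by DESeq2, where 6 had an unadjusted p under 0.05, and 0.144% of all genes passed. In KO, 15 rose and 2 fell on n6 against SFA with 22.8% of all genes called, and Fcna (0.55), C7 (0.54), Serping1 (0.32) and C1ra (0.23) were among those that rose. On log2 TPM 18 rose and 0 fell, with 3799 of 15128 genes called. On the count scale 3 passed without the 4 libraries of high B cell or muscle marker levels, 6 without KO SFA replicate 3 or without KO n6 replicate 1, 9 without KO SFA replicate 4, 10 without KO n6 replicate 4 and 11 without KO SFA replicate 1. Over all genes 1729 of 15513 were called without those 4 libraries, against 3474 of 15259 with them. That total ran from 2048 to 4173 when each library was left out. On n3 against SFA in KO 5 rose and 1 fell, with 1.46% of all genes called, among them Fcna (0.66), C1ra (0.27), Cd55 (0.24), C1s1 (0.23) and, lower, Masp1 (-0.69). On log2 TPM 1 rose and 1 fell, with 203 of 15128 genes called. The edgeR count ran from 2 to 10 when each library was left out, with 3 without KO SFA replicate 1, KO SFA replicate 3 or KO n3 replicate 2, 2 without KO n3 replicate 1 and 10 without KO n3 replicate 4. Over all genes 223 were called with every library, 80 without KO n3 replicate 1 and 859 without KO n3 replicate 4.

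Between n3 and n6, 4 genes of the list rose and 7 fell in WT (18.4% of all genes called) and 2 rose and 3 fell in KO (26% called). On log2 TPM 2 rose and 10 fell in WT, and 0 rose and 5 fell in KO, with 3882 and 3391 of 15128 genes called. The edgeR count of 5 in KO was 2 without the 4 libraries with high muscle or B cell marker levels, without the 2 high in hepatocyte markers or without KO n3 replicate 3, 3 without KO n6 replicate 1 or 2 or KO n3 replicate 1 or 2, and 8 without KO n3 replicate 4. Over all genes 3972 were called in the main fit, and 1377, 2124 and 2048 in the fits that left 2. Without KO n3 replicate 4 that total was 5280. The genotype effect differed by diet for C1ra, C1s1 and Masp1 (adjusted p = 0.014, 0.035 and 0.0052, edgeR), 3 of the 36, where 6.44% of all genes passed. On log2 TPM Masp1 alone of the 36 passed, as did 802 of 15128 genes in all. The edgeR count was 2 without the 4 libraries with high muscle or B cell marker levels, 4 without the 2 high in hepatocyte markers and 6 without KO n3 replicate 4. Over all genes, calls in those fits were 311 of 15513, 1021 of 15354 and 2525 of 15386, against 983 of 15259 in the main fit. For C1ra and C1s1 the effect was larger on SFA, by log2 0.34 (SE 0.0711) and 0.31 (SE 0.0783) against n6 (adjusted p = 0.023 and 0.06 for that pair of diets, so the C1s1 contrast alone did not pass). For Masp1 it was larger on n6, by 1.09 (SE 0.184, adjusted p = 0.0053).

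Other proteins that adipocytes secrete did not all move in one direction. Of 16 listed, 4 of them also in the adipocyte marker list, 15 were tested, and 8 fell and 5 rose on SFA, 7 fell and 5 rose on n6, and 6 fell and 4 rose on n3. Either direction was called for 39.9%, 43.1% and 38.8% of all genes. On log2 TPM 8 fell and 3 rose, 9 fell and 3 rose, and 8 fell and 2 rose, with 6438, 7969 and 8367 of 15128 genes called. Hp, which encodes haptoglobin, fell by log2 1.49, 1.25 and 0.97, and Sfrp5, a secreted inhibitor of Wnt signalling, by 1.70, 1.09 and 0.94. Lep, the gene for leptin, fell by 0.68, 0.96 and 0.39, and Adipoq, the gene for adiponectin, by 0.57, 0.24 and 0.25. Rbp4, the retinol carrier, rose by 1.20, 1.26 and 1.14, from 258 ± 35.9 to 592 ± 58.7 CPM on SFA. Nampt, an enzyme of NAD synthesis, rose by 0.53, 0.41 and 0.45, and on log2 TPM passed on SFA alone (0.29, with 0.12 on n6 and 0.16 on n3).

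Markers of cell types were read beside these results. The summed CPM of 12 adipocyte markers overlapped between genotypes on all 3 diets (43020 to 46070 in WT and 41450 to 47530 in KO on SFA), while single markers differed: 5, 5 and 6 rose and 3, 2 and 2 fell on SFA, n6 and n3. On log2 TPM 1, 2 and 3 of the adipocyte markers rose and 5, 6 and 3 fell. Of all tested genes 39.9%, 43.1% and 38.8% were called between genotypes on counts, and 6438, 7969 and 8367 of 15128 on log2 TPM. Of 12 macrophage markers, 10 fell in KO on SFA, 8 on n6 and 6 on n3, none rose, and none was at 0. Their sums ran from 1219 to 1465 in WT and 754 to 1006 in KO on SFA, 1312 to 1944 and 1066 to 1320 on n6, and 1258 to 1513 and 999 to 1304 on n3. Of 11 stromal progenitor markers, 10, 7 and 1 fell and none rose, with sums of 2004 to 2124 against 1273 to 1762 on SFA, 2118 to 2281 against 1714 to 1925 on n6, and 1980 to 2149 against 1718 to 2155 on n3. On log2 TPM 10, 9 and 9 macrophage markers and 11, 10 and 8 stromal markers fell, and none rose. Cd55 is in both the stromal and the complement list. The part of these cells in the complement differences was not tested. Median changes on SFA, n6 and n3 were -0.46, -0.44 and -0.33 for the macrophage list and -0.43, -0.24 and -0.11 for the stromal list. The 7 genes ran from -3.24 for Cfd to -0.62 for Cfp and -0.39 for C3ar1 on SFA. They ran from -2.78 for Cfd to -0.44 for Cfp on n6, and from -1.99 for Cfd to -0.17 for Cfp on n3.

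**Figure D4:**
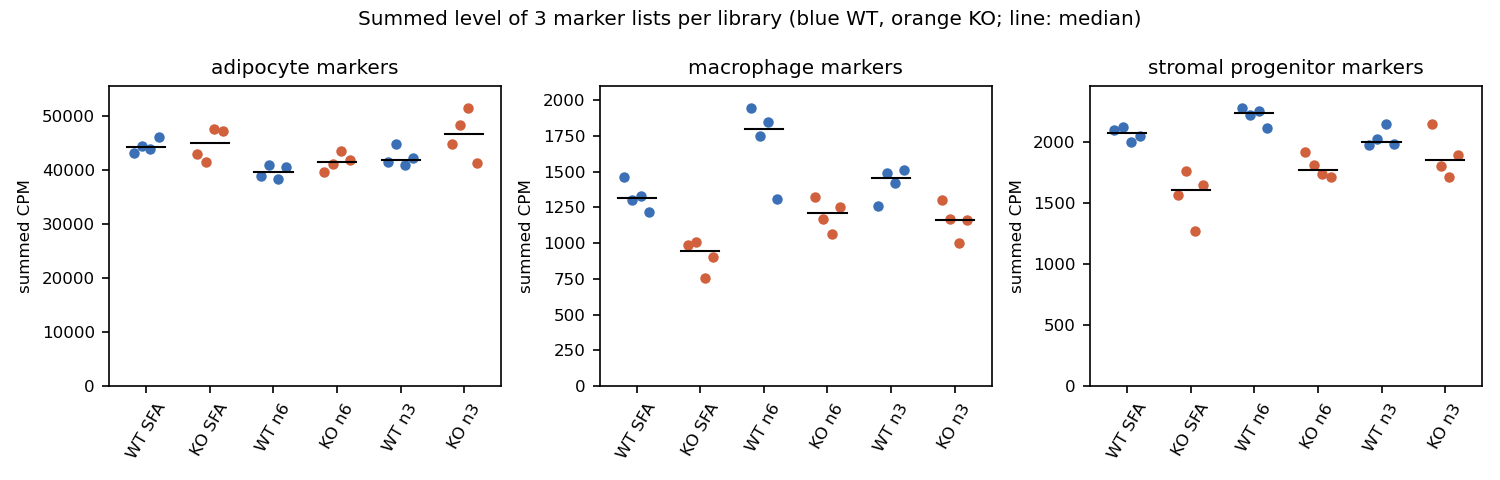
Summed CPM of 12 adipocyte, 12 macrophage and 11 stromal progenitor markers in each library (points; line, median of 4; axes from 0). Macrophage sums on SFA lie at 1219 to 1465 in WT and 754 to 1006 in KO, while adipocyte sums overlap between genotypes.

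Without the 4 libraries of high B cell or muscle marker levels the list counts in KO against WT were 18 lower and 1 higher, 15 and 1, and 16 and 2 on SFA, n6 and n3. Without the 2 libraries of high hepatocyte marker levels they were 21 lower and 1 higher, 17 and 2, and 16 and 0. Over all genes, calls were 5485, 5238 and 5781 of 15513 without those 4 libraries and 6277, 6583 and 4857 of 15354 without those 2. With every library they were 6086, 6571 and 5924 of 15259.

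Other cell types had markers that differed between genotypes too, and their part in the complement differences was not tested. Of all tested genes, 39.9%, 43.1% and 38.8% were called in either direction between genotypes on SFA, n6 and n3. On log2 TPM 6438, 7969 and 8367 of 15128 genes were. Of 6 endothelial markers, 4 rose in KO on SFA, 1 rose on n6 and 2 fell on n3, with sums of 778 to 988 in WT and 918 to 1281 in KO on SFA, 1014 to 1174 and 1279 to 1352 on n6, and 901 to 1238 and 776 to 1157 CPM on n3. The n6 groups did not overlap. On n3 against n6 in KO 5 of the 6 fell on counts and 5 on log2 TPM, with 26% of all genes called on counts and 3391 of 15128 on log2 TPM. On n6, 4 of 5 T cell markers rose in KO (sums of 6.58 to 7.82 CPM in WT and 6.16 to 16.8 in KO), as did 6 of 7 B cell markers (2.39 to 3.07 and 4.44 to 41.4 CPM). Of 6 tested neutrophil markers 3 rose and 1 fell there (13.4 to 21 and 14.3 to 20.8 CPM), and Ly6g, a defining marker, was at 0 in all groups. On n3, 5 of 7 tested gland epithelium markers rose (0.572 to 0.777 CPM in WT and 1.91 to 5.83 in KO), as did 2 of 6 hepatocyte markers (10.1 to 11.5 and 11.5 to 41.3 CPM). On log2 TPM 0 endothelial markers passed on SFA, 1 fell on n6 and 5 fell on n3, with none higher. On n6, 2 T cell markers, 1 B cell marker and 2 neutrophil markers rose on that scale, and 1 neutrophil marker fell. On n3, 2 gland epithelium markers rose on it, and 0 hepatocyte markers rose and 1 fell.

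How the 7 genes varied together is given over 24 libraries, which share the genotype contrast, and again after subtracting each group's mean. Cfd went with C2 (r = 0.969) and Cfb (0.968), but within groups these values were 0.32 and 0.372. Cfb and C2 kept a higher value within groups (0.982 and 0.634). Both share exonic bases with Gm20547, and the part of split reads in that value was not tested. C3ar1 followed the macrophage markers Adgre1 (0.967, within groups 0.924) and Cd68 (0.963, within groups 0.941), and Cfp followed Csf1r (0.936, within groups 0.902). The WT n6 library lowest in C3ar1, at 35.8 CPM, was also lowest of its group in Adgre1 (71.3 against 103 to 123 CPM in the others). Cfd and C3ar1 had r = 0.542 over all libraries and -0.592 within groups.

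Among 11804 genes compared over the 24 libraries, the patterns most like that of Cfd were Pxmp2 (r = 0.984), Tmem43 (0.982), Esyt1 (0.981), Gga2 (0.979) and Os9 (0.977). Pxmp2 had means of 16.9, 17.9 and 14 CPM in WT and 6.78, 7.58 and 8.33 CPM in KO on SFA, n6 and n3, the same rank order of KO groups as Cfd. The most opposite were Atp6v0a2 (-0.964), Hapln4 (-0.954) and Chd4 (-0.953), with Hapln4 at 1.71 CPM in WT SFA and 9.18 CPM in KO SFA. Within groups the nearest to Cfd was another gene, Cbs (0.915). The patterns most like C3 were Capn1 (0.985) and Serping1 (0.976), and those most like C3ar1 were Adgre1, Cd68, Was (0.962), Nckap1l (0.96) and Cd84 (0.959).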

How the data were processed

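The authors deposited estimated counts from Salmon, which were rounded to whole numbers here. The deposited abundance table holds TPM, joined to the counts by gene symbol (34865 of 35727 genes). The submitters' processing notes name fastp 0.23.2, Salmon and mm10; the version of Salmon and its annotation are not given in those notes. Libraries were made from poly-A RNA, per the labels' protocols. Genes passing filterByExpr (minimum count 10, minimum total 15; 15259 genes, 99.98% of counts) were fitted with edgeR 4.0.16 in R 4.3.3 (TMM, quasi-likelihood F test, robust, 1 coefficient per group, 18 residual degrees of freedom), with Benjamini-Hochberg adjustment over all of them and a threshold of 0.05. The code was tested on simulated data. Intervals are 95% and cover the spread between libraries. TPM was tested as log2(TPM + 1) with limma 3.58.1, and fold changes on that scale understate those of low genes. Alternatives were RLE scaling, library totals, no filter, DESeq2 1.42.0, only the groups compared, a replicate block, other TPM settings, leaving out the 100 most abundant genes, 4 libraries with high B cell or muscle marker levels, and each library in turn. Leaving out 2 libraries with high hepatocyte marker levels was chosen after seeing the data. The 7 genes, the lists and those library thresholds were chosen with earlier results of these data known. Named genes are the 7, Lpcat3, called genes of the complement list, up to 6 called secreted factors, fixed markers and the 5 most alike and 3 most opposite patterns. Of the complement list, 1 gene is counted but not reported here by name. Replicate numbers shared by groups were not treated as pairs: in 0 of 9 comparisons did every same-numbered pair correlate above 0.1. Differently numbered pairs were not compared, so this rule cannot exclude a factor shared by replicate number.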

Additional observations from a re-analysis of the deposited data

Results flagged for a closer look

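In 4 of 42 groups of 4 libraries checked for the 7 genes, 1 library stood far from the other 3, where chance gives about 1 in 20. Cfd read 179.4 CPM in KO n6 replicate 3, with the others at 125.4 to 133 CPM, and 846.6 CPM in WT n3 replicate 2, with the others at 611 to 642.3 CPM. C2 read 46.44 CPM in WT SFA replicate 3, with the others at 57.17 to 57.67 CPM, and 41.58 CPM in WT n3 replicate 1, with the others at 47.68 to 48.79 CPM. WT SFA replicate 3 was also 1 of the 4 libraries with high B cell or muscle marker levels.

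Among 36 other complement genes, the genotype effect differed by diet for 3 in edgeR's test of the interaction: C1ra (adjusted p = 0.01432), C1s1 (adjusted p = 0.0347) and Masp1 (adjusted p = 0.005174). Of all tested genes 6.44% passed the same test, and on log2 TPM the C1ra and C1s1 calls were lost (adjusted p = 0.147 and 0.333, limma). All 4 C1ra libraries of KO were below those of WT on SFA and n3, whereas on n6 they overlapped. All 4 Masp1 libraries were lower in KO on n6 and n3, and overlapped on SFA.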

How the results depend on the processing

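The 21 KO against WT values of the 7 genes were negative under every alternative run (420 in all). Of those 420, 49 moved by more than 1 SD between libraries, all with library totals or TPM, whose scaling shifts all genes. In the diet comparisons 49 moved, and 0 of the called values changed sign. For the other complement genes, counts in KO against WT ran from 18 to 20 on SFA, 15 to 19 on n6 and 15 to 18 on n3 when each library was left out, and from 8 to 12 for n6 against SFA, 8 to 11 for n3 against n6 and 0 to 0 for n3 against SFA in WT. Diet counts in KO moved more. For n6 against SFA in KO, 17 genes became 8 with no filter and 3 without the 4 libraries of high B cell or muscle marker levels, and 6 to 18 when each library was left out. Calls over all genes went from 3474 to 2874, 1729 and 2048 to 4173 in the same settings. For n3 against SFA in KO, 6 became 3 with no filter, 10 with DESeq2, 1 with only the groups compared, 2 with each of log2(TPM + 1), log2(TPM + 0.1) and log2(TPM + 1) without a filter, and 2 to 10 by library. Calls over all genes went from 223 to 165, 588, 31, 203, 204, 164 and 80 to 859 in the same settings. For n3 against n6 in KO, 5 became 3 with no filter, 2 with only the groups compared, 2 without the libraries with high muscle or B cell marker levels, 2 without the 2 high in hepatocyte markers, and 2 to 8 by library. Calls over all genes went from 3972 to 3182, 1724, 1377, 2124 and 2048 to 5280 in the same settings. For the genotype effect by diet, 3 became 7 with DESeq2, 1 with each of the 3 TPM settings, and 2 to 6 by library. Calls over all genes went from 983 to 1933, to 802, 758 and 585, and to 501 to 2525 in the same settings. The cause was not tested. With the replicate number as a block the counts were 19, 18 and 19 in KO against WT on SFA, n6 and n3, 11, 0 and 11 for n6 against SFA, n3 against SFA and n3 against n6 in WT, 16, 8 and 5 for the same in KO, and 4 for the genotype effect by diet. Same-numbered libraries correlated at -0.144 to 0.257, so the numbers were not treated as pairs. Depth limits Cfi, Cpn2, Cr2 and Hc, which had few counts per library.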
